A study of Mus musculus with 12 samples.

Results

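The cJun peaks described here were found in DMSO-treated Min6 cells, lie at a peak of trimethylated histone H3 lysine 4 (H3K4me3), and sit far from the promoters of a basic gene annotation. They were selected on the DMSO lists as cJun peaks that overlapped a DMSO H3K4me3 peak by at least 1 bp and whose midpoint was more than 3 kb from every transcription start site (TSS) of the GENCODE vM21 basic annotation on GRCm38. The rule found 839 of 4960 cJun peaks (16.9%), which was 31.7% of the 2649 cJun peaks at H3K4me3. They are called distal H3K4me3 cJun peaks below. Of the other cJun peaks, 1810 were at H3K4me3 within 3 kb of a TSS (promoter peaks), 2043 were distal without H3K4me3 (unmarked distal peaks), and 268 were near a TSS without H3K4me3.

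Min6 cells come from a mouse insulinoma and serve as a β cell model. Cells received the JNK inhibitor SP600125 (JNKi) at 20 µM or DMSO for 48 h, and CUT&RUN was run on 550000 cells per reaction with a cJun, H3K4me3 or IgG antibody, which gave 6 groups of 2 biological replicates (12 samples). Both treatments used the same line, which is a tumour-derived culture and not islet tissue. The 4 lists used here, cJun and H3K4me3 in DMSO and JNKi, each combine both replicates of a group, so a list has no replicate error. The nominal depth was 30000000 paired-end reads of 150 bp per sample, and the number of mapped reads behind each list is unknown. Every interval is a 95% Wilson interval (for odds ratios, a 95% interval of the ratio) that covers counting error alone. Because a peak is no replicate of a treatment, each test describes the lists and not the effect of JNKi. An H3K4me3 peak covered a TSS of 7 of 8 β cell marker genes in both treatments (all but Ins1), and of 1 of 10 markers of other pancreatic cells (Gcg, which encodes glucagon).

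cJun is a subunit of AP-1, a family of leucine zipper dimers that bind the sequence TGACTCA or its reverse complement TGAGTCA. JNK phosphorylates and stabilizes cJun in stressed cells. H3K4me3 marks active promoters, is often broad over CpG-rich start sites, and is usually low at enhancers, where AP-1 sites are common.

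The sequence at the summit (the base of highest signal) of chosen peaks is given to show what the searched motifs look like in distal H3K4me3 cJun peaks with and without an AP-1 site. The first set holds 4 of the 5 highest-ranked distal H3K4me3 cJun peaks with an AP-1 site within 100 bp of the summit. Sequences are the plus strand of GRCm38 from the RefSeq assembly, 5′ to 3′. The repeat masking of the reference is not shown in them. Capitals mark every match to the motifs searched on both strands, which were TGACTCA and TGAGTCA (AP-1), TGACGTCA (CRE), GGGCGG (GC box), CACGTG and CAGATG (E-boxes), TGTTTAC (forkhead) and CCAAT.

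Slc2a5 intron, chr4:150138275-150138475: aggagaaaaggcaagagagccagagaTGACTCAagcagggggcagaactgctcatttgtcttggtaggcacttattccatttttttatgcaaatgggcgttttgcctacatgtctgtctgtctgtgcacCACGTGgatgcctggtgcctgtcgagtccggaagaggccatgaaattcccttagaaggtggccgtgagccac
Eif2ak3 intron, chr6:70872219-70872419: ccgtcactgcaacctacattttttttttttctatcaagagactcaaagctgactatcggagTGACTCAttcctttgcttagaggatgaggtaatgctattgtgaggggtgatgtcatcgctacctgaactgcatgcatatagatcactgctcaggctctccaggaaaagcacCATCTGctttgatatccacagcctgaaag
Actn4 intron, chr7:28931040-28931240: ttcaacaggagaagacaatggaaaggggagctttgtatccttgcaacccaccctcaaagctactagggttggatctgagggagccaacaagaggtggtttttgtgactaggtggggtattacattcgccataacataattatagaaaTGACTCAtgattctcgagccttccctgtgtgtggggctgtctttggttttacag
Gm37580 intergenic, chr1:24108084-24108284: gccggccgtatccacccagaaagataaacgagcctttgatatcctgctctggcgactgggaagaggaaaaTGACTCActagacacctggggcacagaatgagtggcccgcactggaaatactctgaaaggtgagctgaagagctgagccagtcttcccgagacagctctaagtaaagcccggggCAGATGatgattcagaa

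Each of the 4 carried TGACTCA as written on the plus strand, with its centre at -71, -36, 50 and -27 bp from the summit in the order shown. The first window also held CACGTG, and the Eif2ak3 and Gm37580 windows each held an E-box of the CAGATG type.

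The second set holds summits of 2 of the 3 strongest distal H3K4me3 cJun peaks, which had no AP-1 site in the window, and of the peaks near 4 genes of β cell identity or secretion.

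Ccr1 intergenic, chr9:123925133-123925333: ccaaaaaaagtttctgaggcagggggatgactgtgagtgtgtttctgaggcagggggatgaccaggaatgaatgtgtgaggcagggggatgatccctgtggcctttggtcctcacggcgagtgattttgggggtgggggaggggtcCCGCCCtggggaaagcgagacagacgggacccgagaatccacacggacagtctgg
Gm26644 intergenic, chr19:44674515-44674715: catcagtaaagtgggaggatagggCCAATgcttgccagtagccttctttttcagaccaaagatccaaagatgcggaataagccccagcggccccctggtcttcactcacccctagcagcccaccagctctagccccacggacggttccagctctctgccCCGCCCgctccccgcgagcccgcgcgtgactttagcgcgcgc
Cck downstream, chr9:121487195-121487395: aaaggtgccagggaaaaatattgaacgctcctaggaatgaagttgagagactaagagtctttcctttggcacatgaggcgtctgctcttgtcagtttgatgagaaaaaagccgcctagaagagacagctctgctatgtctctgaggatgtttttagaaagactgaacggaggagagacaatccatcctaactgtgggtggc
Nkx6-1 downstream, chr5:101646175-101646375: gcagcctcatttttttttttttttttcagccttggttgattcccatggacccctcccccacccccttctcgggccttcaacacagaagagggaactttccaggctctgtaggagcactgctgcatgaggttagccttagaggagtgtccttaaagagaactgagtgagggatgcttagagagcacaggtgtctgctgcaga
Nkx2-2os intron, chr2:147195278-147195478: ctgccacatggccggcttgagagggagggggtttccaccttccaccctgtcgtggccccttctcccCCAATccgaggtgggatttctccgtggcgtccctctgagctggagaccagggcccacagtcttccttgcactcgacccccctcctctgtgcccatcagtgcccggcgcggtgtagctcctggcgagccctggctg
Chga upstream, chr12:102546681-102546881: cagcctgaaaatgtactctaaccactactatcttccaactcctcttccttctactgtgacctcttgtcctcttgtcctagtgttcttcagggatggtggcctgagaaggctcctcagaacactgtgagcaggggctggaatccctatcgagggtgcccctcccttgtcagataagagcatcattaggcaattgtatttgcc

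The Ccr1 and Gm26644 windows held a GC box as CCGCCC, the reverse complement of GGGCGG. The Gm26644 and Nkx2-2os windows held CCAAT. None of the searched motifs was found in the Cck, Nkx6-1 and Chga windows, which says only that those letters are absent from these windows.

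Most distal H3K4me3 cJun peaks lay in introns or between genes. Introns held 443 (52.8%), intergenic sequence 370 (44.1%) and exons 26 (3.10%), of which 10 were coding, 10 untranslated and 6 of noncoding transcripts. The distance to the nearest TSS had a median of 13603 bp (quartiles 6610 and 26725 bp, range 3049 to 272523 bp). The nearest TSS belonged to a protein-coding gene for 431 peaks (51.4%), and the nearest genes numbered 747. The X chromosome held 8 peaks and the Y chromosome 1. Against the comprehensive annotation, which holds more transcripts, 99 peaks (11.8%) lay within 3 kb of a TSS. The 3 peaks just outside the limit were 3049, 3061 and 3063 bp from the TSS of Ghr, Mbnl2 and Gm3513, and the 3 just inside it were 2988, 2986 and 2982 bp from those of Notch1, Gm8504 and Gm16116. The smallest overlap with H3K4me3 that let a peak in was 29 bp, near Rimkla and near Smug1.

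The H3K4me3 under these peaks was mostly TSS-free. The overlapping H3K4me3 peak held no TSS for 812 peaks (96.8%) and held one for 27 (3.22%), whereas 1671 of 1810 promoter peaks (92.3%) were in an H3K4me3 peak with a TSS. This contrast follows from the rule. The H3K4me3 peaks were also narrower, with a median of 1065 bp (quartiles 696 and 1744 bp) beside 3029 bp for promoter peaks (2134 and 4092 bp), and ranked lower, at a median percentile of 23.5 of the DMSO H3K4me3 list beside 68.8. Both values belong to the lists that chose the peaks and are a description. The 27 in TSS-holding H3K4me3 peaks had a median H3K4me3 width of 7612 bp, the other 812 one of 1038 bp, and the 27 lay at most 8656 bp from a TSS. The rule bears on these values too, because both the TSS and a cJun peak with its midpoint over 3 kb away had to fall in or touch H3K4me3. Where a cJun peak overlapped 2 H3K4me3 peaks, the width is that of the one with the larger overlap and the TSS may lie in either, and the narrowest of the 27, at 439 bp, is such a case.

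The median gap between cJun and H3K4me3 summits was 149 bp (quartiles 37 and 343.5 bp), beside 417.5 bp for promoter peaks. The rule required the 2 peaks to overlap, so the gap is bounded by their widths, and the H3K4me3 peaks were narrower here, as given above. The cJun summit fell inside the H3K4me3 peak for 779 (92.8%), and 402 (47.9%) lay wholly inside it. Only 11 peaks shared both ends with the H3K4me3 peak to within 20 bp. The 839 peaks were spread over 811 H3K4me3 peaks, of which 779 held 1, 29 held 2 and 3 held 3, where 7 cJun peaks overlapped 2 H3K4me3 peaks and are counted in both. Another distal H3K4me3 cJun peak lay within 50 kb for 221 (26.3%).

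**Figure D1:**
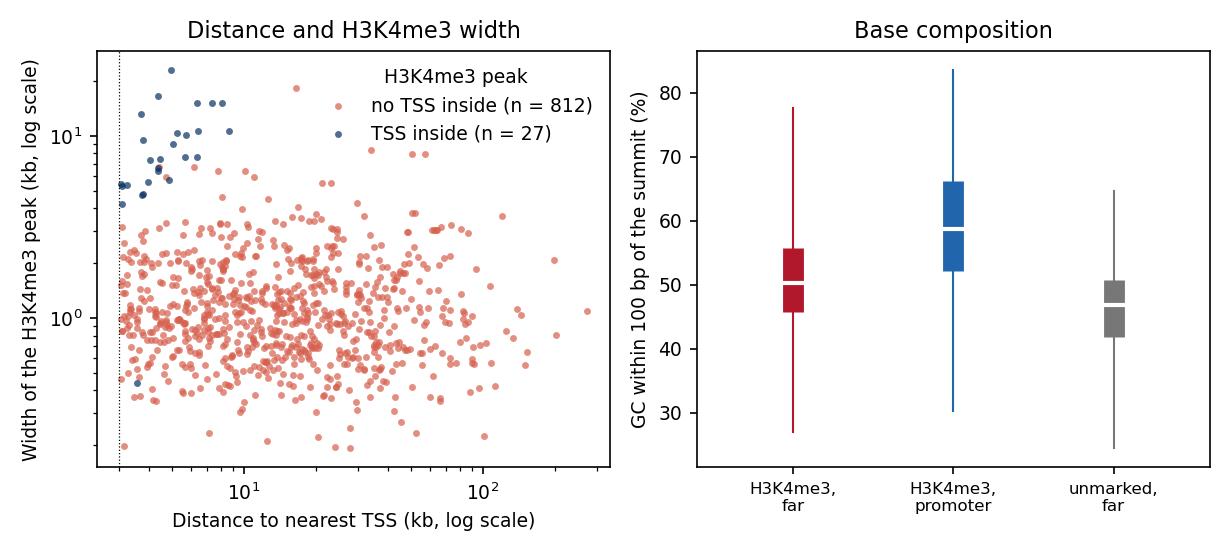
Left, distance to the nearest TSS (kb, log scale) against the width of the overlapping H3K4me3 peak (kb, log scale) for 839 distal H3K4me3 cJun peaks, with the dotted line at 3 kb. The 27 peaks whose H3K4me3 peak holds a TSS lie toward the left and mostly at the top. Right, GC share within 100 bp of the summit, with the median (white line), quartiles (bar) and range (thin line), for the 839 peaks, 1810 promoter peaks and 2043 unmarked distal peaks, whose medians are 50.2, 58.7 and 46.8%.

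cJun values in the 2 DMSO replicates were only loosely related. The deposited −log10 p, which scores a peak against IgG, had a median of 7.91 in the first replicate (range 3.04 to 96.2) and 7.21 in the second (3.02 to 102.9). Across the 839 peaks, Spearman's rho between the replicates was 0.375, beside 0.381 for promoter peaks and 0.363 for unmarked distal peaks, as a description over peaks that share libraries. Replicate summits were a median of 62 bp apart. A −log10 p of at least 10 in both replicates was reached by 135 peaks (16.1%), and 270 (32.2%) were under 5 in the weaker one. The irreproducible discovery rate (IDR), which estimates how often a peak would not replicate, did not exceed 0.05 for 82 peaks (9.77%), where the share over all cJun peaks was 8.97%. The cJun peak itself was a median of 735 bp wide, beside 559 bp for promoter and 666 bp for unmarked distal peaks.

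**Figure D2:**
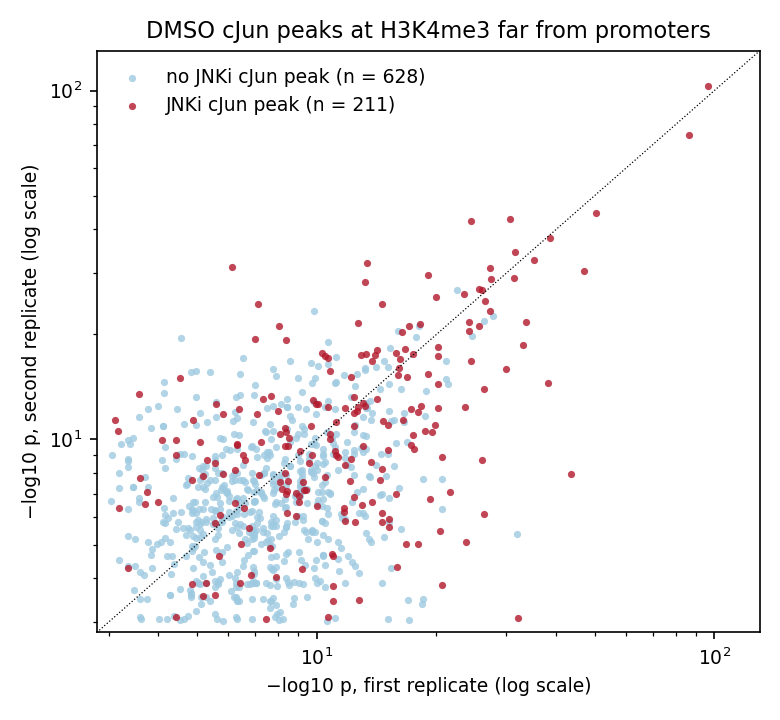
−log10 p of each of the 839 distal H3K4me3 cJun peaks in the first (x axis) and second (y axis) DMSO replicate, both on log scales, coloured by overlap with a JNKi cJun peak. The dotted line marks equal values. Points scatter widely at low values, and the 10 highest-ranked peaks are all among the 211 overlapped ones.

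The 10 highest-ranked distal H3K4me3 cJun peaks all had a cJun peak in JNKi, where 23.6% of all DMSO cJun peaks and 51.4% of distal H3K4me3 cJun peaks in the highest quintile had one. An AP-1 site within 100 bp of the summit was found in 0 of the 10, where the share over all DMSO cJun peaks was 10%, so the count is near the background. The highest lay between genes 43654 bp from Ccr1, a chemokine receptor, with −log10 p of 96.2 and 102.9 in the DMSO replicates and 58.2 and 10 in the JNKi replicates, and ranked 3rd among all DMSO cJun peaks. Within 100 bp of its summit, 58.2% of the reference is masked as repeat, where 24 of the 839 peaks (2.86%) were over 50%. Whether repeats bear on its values was not tested. The second, in a coding exon of Ccdc162, had 86.5 and 74.7 in DMSO and 34.6 and 45.4 in JNKi. Values between treatments come from lists of unknown depth and are set side by side, not compared. The third to seventh, all intergenic, had their nearest TSS at Gm26644 (50.3 and 44.5 in DMSO), Camk2n1, an inhibitor of CaM kinase II (38.5 and 37.9), Gm13790 (35.2 and 32.6), Fam25c (31.5 and 34.5) and Tex44 (30.6 and 42.7). The last 3 were intronic, in Gm32585 (46.9 and 30.3), in Setd1b, which encodes an H3K4 methyltransferase (31.3 and 29.1), and in Ccl28, which encodes a chemokine (27.5 and 28.9). A JNKi H3K4me3 peak overlapped each of the 10 except that at Gm13790, beside 86.2% of all 839 distal H3K4me3 cJun peaks.

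The highest-ranked peaks without a JNKi cJun peak had lower −log10 p, and 2 of the 3 lay at narrow H3K4me3 peaks. The first, nearest to Gm11689, was 200 bp wide at an H3K4me3 peak of 192 bp, with −log10 p of 27.8 and 22.6. The second, in a coding exon of Usp43, had 22.5 and 26.9 at an H3K4me3 peak of 195 bp. The third, nearest to Srsf9, had 26.3 and 21.8 at an H3K4me3 peak of 1456 bp. All 3 kept an overlapping H3K4me3 peak in JNKi, as did 86.2% of all 839. Among all 839, 28 were under 300 bp wide.

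JNKi cJun peaks were then compared with these regions, because the JNKi libraries played no part in their choice. A JNKi cJun peak overlapped 211 of 839 (25.1%, interval 22.3 to 28.2), where the share over all DMSO cJun peaks was 23.6%. The share was 21.6% (391 of 1810, 19.8 to 23.6) for promoter peaks and 24.3% (497 of 2043, 22.5 to 26.2) for unmarked distal peaks. Against promoter peaks the odds ratio was 1.22 (1.01 to 1.48) and Fisher's exact test (two-sided, over peaks) gave p = 0.0462, or 0.0924 after Benjamini-Hochberg adjustment over 8 tests, which misses 0.05. Against unmarked distal peaks the odds ratio was 1.05 (0.868 to 1.26), with an adjusted p of 0.764 by the same Fisher's exact test. With the promoter limit at 5 kb the first odds ratio was 1.29 and its adjusted p 0.0275 by Fisher's exact test. It passed under no other alternative. There it ran from 1.10 with at least 50% of the cJun peak inside H3K4me3 to 1.69 with IDR limited to 0.05. Their adjusted p was 0.454 and 0.199 by Fisher's exact test. With IDR limited to 0.05, the overlapped share was 69.5% (57 of 82, 58.9 to 78.4) and the odds ratio against unmarked distal peaks 0.646 (0.355 to 1.18). That odds ratio was also under 1, between 0.903 and 0.998, under 4 further alternatives, so its direction is not settled.

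Overlap tracked the DMSO cJun rank. From the highest to the lowest quintile of the DMSO list, a JNKi cJun peak overlapped 51.4, 25.9, 19.5, 11.5 and 14.4% of distal H3K4me3 cJun peaks. The shares were 47.6, 22.3, 13.3, 14.8 and 8.90% for promoter peaks and 58.0, 28.3, 14.9, 14.2 and 9.36% for unmarked distal peaks. Overlapped peaks were wider in DMSO, with a median of 1066 bp against 673 bp for the 628 others, and stood at a median percentile of 75.1 of the cJun list against 44.2. The part of width in the result was not tested. Their H3K4me3 peaks had medians of 1061 and 1068 bp. Across the 211, Spearman's rho between the DMSO and JNKi −log10 p was 0.475, as a description.

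**Figure D3:**
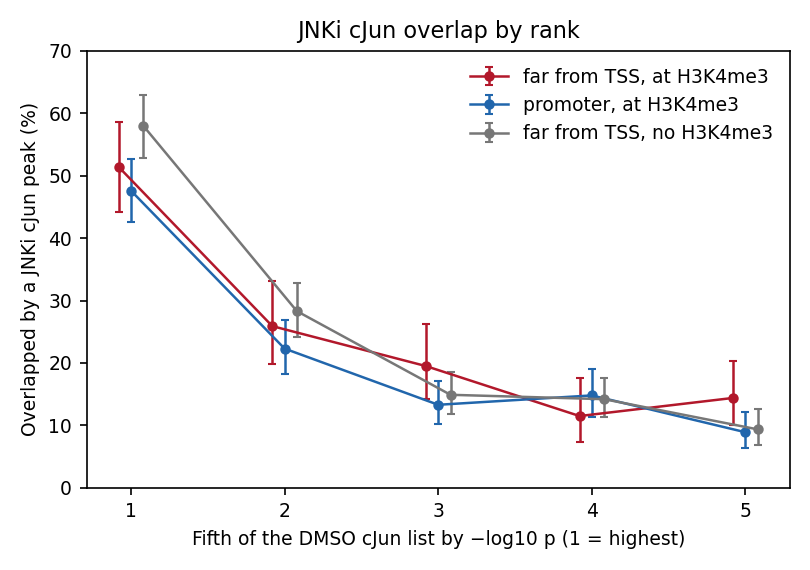
Share of DMSO cJun peaks overlapped by a JNKi cJun peak (y axis, percent) by quintile of the DMSO cJun list (x axis, 1 the highest −log10 p), for the 3 classes, with 95% Wilson intervals. All 3 curves are highest in the first quintile, at 51.4% for distal H3K4me3 cJun peaks, whose interval overlaps those of both other classes in each quintile.

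The same rule applied to the JNKi lists chose 300 of 1632 JNKi cJun peaks (18.4%), and 181 of these (60.3%) overlapped one of the 839. Over all classes, the 1632 JNKi cJun peaks overlapped 1169 of the 4960 DMSO cJun peaks. The share of all JNKi cJun peaks that overlap a DMSO cJun peak is not given here. The 60.3% is therefore not shown to be particular to this class. Among intergenic peaks 30.3% (25.8 to 35.1) had a JNKi cJun peak and among intronic ones 20.8% (17.2 to 24.8), where the median cJun percentile was 56.2 and 47.7. These 2 shares were not tested against each other. For peaks in TSS-holding H3K4me3 peaks the share was 22.2% (6 of 27) against 25.2% (205 of 812), with an odds ratio of 0.846 (0.337 to 2.12) and an adjusted p of 0.825 by Fisher's exact test.

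H3K4me3 at these regions was present in JNKi for most. A JNKi H3K4me3 peak overlapped 723 of 839 (86.2%, 83.7 to 88.3), where the share over all DMSO cJun peaks, marked or not, was 52.7%. The share was 98.6% (1785 of 1810, 98.0 to 99.1) for promoter peaks. The odds ratio was 0.0873 (0.0562 to 0.136), with p = 3.11e-37 by Fisher's exact test (two-sided, over peaks) and an adjusted p of 2.49e-36. H3K4me3 rank moved with this difference. In the 3 highest quintiles of the DMSO H3K4me3 list all distal H3K4me3 cJun peaks were overlapped (33, 36 and 140), in the next 98.5% (270 of 274), and in the lowest 68.5% (244 of 356), where promoter peaks had 83.8% (129 of 154). Stratified by H3K4me3 quintile, an alternative added after seeing the data, the Mantel-Haenszel odds ratio over the 2649 peaks was 0.403 (0.249 to 0.651). The 116 peaks without JNKi H3K4me3 had a median DMSO H3K4me3 width of 561.5 bp, and the other 723 had 1170 bp.

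Distal H3K4me3 peaks with no TSS inside were also split by the presence of cJun. Of 5427 such peaks in DMSO, 780 (14.4%) held a distal H3K4me3 cJun peak. JNKi H3K4me3 overlapped 665 of these 780 (85.3%) and 3909 of the 4642 without any cJun peak (84.2%), a difference that was not tested. Their median widths were 991.5 and 784.5 bp. Counting cJun and H3K4me3 jointly, 187 of the 839 regions (22.3%) had JNKi cJun and H3K4me3, 536 (63.9%) H3K4me3 alone, 24 (2.86%) cJun alone and 92 (11%) neither.

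**Figure D4:**
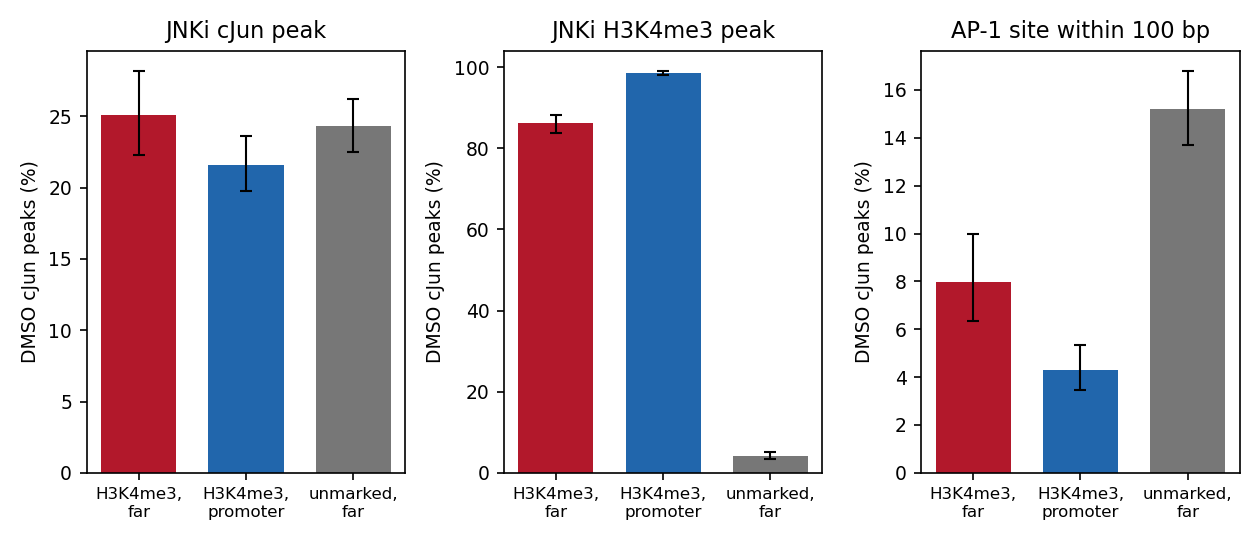
Share of DMSO cJun peaks (y axes, percent, from 0) with a JNKi cJun peak, a JNKi H3K4me3 peak and an AP-1 site within 100 bp of the summit, for the 839 distal H3K4me3 cJun peaks, 1810 promoter peaks and 2043 unmarked distal peaks, with 95% Wilson intervals. JNKi cJun shares lie between 21.6 and 25.1%, and AP-1 shares are 7.99, 4.31 and 15.2%.

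The AP-1 motif was less common at distal H3K4me3 cJun peaks than at unmarked distal peaks and more common than at promoters. An AP-1 site within 100 bp of the summit was found in 67 of 839 (7.99%, 6.34 to 10%), where the share over all DMSO cJun peaks was 10%. It was found in 78 of 1810 promoter peaks (4.31%, 3.47 to 5.35) and 311 of 2043 unmarked distal peaks (15.2%, 13.7 to 16.8). By Fisher's exact test across peaks, two-sided, the odds ratio was 1.93 (1.38 to 2.70) against promoter peaks, adjusted p = 5.72e-04, and 0.483 (0.366 to 0.638) against unmarked distal peaks, adjusted p = 3.03e-07. In windows shifted by 2 kb to either side, the share was 3.69% for distal H3K4me3 cJun peaks (62 of 1678), 3.65% for promoter and 3.87% for unmarked distal peaks. With IDR limited to 0.05 (82 peaks) the odds ratios were 1.46 and 0.416, and neither passed (adjusted p = 0.756 and 0.199, Fisher's exact test).

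The 67 peaks held 72 AP-1 sites, at a median of 46 bp from the summit, with 41 within 50 bp and 21 within 25 bp. An AP-1 site was present in 9.93% of intronic (44 of 443) and 5.14% of intergenic peaks (19 of 370). The share was 7.18% in the highest quintile of the cJun list and 10.6% in the lowest, with intervals of 4.25 to 11.9 and 6.86 to 15.9 that overlap. Of the 4 whose sequences are shown above, Slc2a5, which encodes a fructose transporter, had −log10 p of 27.2 and 31.1 in DMSO and 19.6 and 29.7 in JNKi. Eif2ak3, which encodes the ER stress kinase PERK, had 33.1 and 18.7 in DMSO and 29.6 and 23.5 in JNKi. The peak in Actn4, an actin cross-linker, had 20.2 and 18.4 and kept cJun but not H3K4me3 in JNKi. That nearest to Gm37580 had 16.1 and 16 with both marks in JNKi.

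AP-1 sites did not separate peaks with and without JNKi cJun in the narrow window but did in wider ones. Within 100 bp of the summit, 20 of 211 overlapped peaks (9.48%) and 47 of 628 others (7.48%) held a site, an odds ratio of 1.29 (0.748 to 2.24) with an adjusted p of 0.505 by Fisher's exact test. Within 200 bp the odds ratio was 1.77 (1.25 to 2.52), adjusted p = 0.00341, and over the whole peak 2.13 (1.55 to 2.94), adjusted p = 1.19e-05, by the same Fisher's exact test. Overlapped peaks are wider, as given above, so more sequence was searched in them over the whole peak. Between peaks in H3K4me3 peaks with and without a TSS the shares were 14.8% (4 of 27) and 7.76% (63 of 812), an odds ratio of 2.07 (0.693 to 6.16) with an adjusted p of 0.422 by Fisher's exact test. It ran from 4.11 (1.34 to 12.6) in a 50 bp window to 0.968 in a 200 bp window and 0.707 over the whole peak, and passed after adjustment in none of these, so the direction depends on the window.

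The GC content of distal H3K4me3 cJun peaks had a median between those of the other classes. The GC share within 100 bp of the summit had a median of 50.2%, against 58.7% at promoter peaks and 46.8% at unmarked distal peaks. The observed over expected ratio of CpG was 0.350, 0.629 and 0.204 in the same order, and the number of CpG was 4, 10 and 2. The GC box, bound by Sp1-type factors, was in 14.3, 34.5 and 2.84% of windows, and the CAGATG E-box, a site of bHLH factors such as NeuroD1, in 19, 10.7 and 23.7%. CACGTG was in 3.22, 4.36 and 2.79%, the forkhead motif in 4.17, 2.43 and 5.63%, CCAAT in 20.7, 18.7 and 24.3% and CRE, the CREB/ATF site, in 0.715% and 0.636% of distal H3K4me3 and unmarked distal peaks and in 21 of 1810 promoter peaks. Over all DMSO cJun peaks these were 16.4% (GC box), 18% (CAGATG), 3.47% (CACGTG), 4.05% (forkhead), 21.6% (CCAAT) and 0.806% (CRE). Windows shifted by 2 kb from distal H3K4me3 cJun peaks held the GC box in 3.58%, CAGATG in 15.3%, CACGTG in 3.10%, the forkhead motif in 2.92%, CCAAT in 23.8% and CRE in 0.119%. At the summits, CACGTG was thus near its shifted-window share and CCAAT below it. For all of these motifs but the GC box, the share also lay within 1 percentage point of that over all cJun peaks. These shares were not tested.

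Genes of the β cell were looked up for a distal H3K4me3 cJun peak within 50 kb of the gene body, where 6.26% of 21938 protein-coding genes had one and 1.71% had the nearest TSS. Gene bodies differ in length and the lists are short, so the shares are a description. A JNKi cJun peak overlapped 23.6% of all DMSO cJun peaks, which is the background for the JNKi overlaps given by gene. The listed gene itself had the TSS nearest to a peak for 3 of 23 β cell transcription factors, 2 of 26 hormone and granule genes, 1 of 16 glucose sensing and channel genes, 2 of 20 AP-1, CREB/ATF and immediate early genes, 0 of 18 JNK pathway genes, 1 of 21 unfolded protein response genes and 1 of 16 H3K4 methylation genes. Of 23 β cell transcription factors 6 (26.1%) had one. Nkx6-1, required for β cell identity, had 3, of which the highest had −log10 p of 9.18 and 10.9 and no JNKi cJun peak. A second, 1542 bp beyond the gene in an H3K4me3 peak of 10619 bp, had 16.8 and 5.03 and was overlapped by a JNKi cJun peak, and the third (6.68 and 3.85) was not. Nkx2-2 had 3, in one H3K4me3 peak of 15152 bp that holds a TSS, and the highest, in an intron of Nkx2-2os, had 10.5 and 17.3 in DMSO and 13.5 and 14.9 in JNKi. Pax6 had 2 and Pdx1, Neurod1 and Isl1 had 1 each. That near Pdx1 had 7.90 and 4.03 in DMSO and 9.26 and 5.02 in JNKi, with Cdx2 as the nearest TSS. Isl1 had its peak in an intron, under an H3K4me3 peak of 16479 bp, with 9.74 and 5.42 in DMSO. The peak near Neurod1 lay in an intron of Cerkl (9.26 and 3.85) and the highest near Pax6 in an intron of Elp4 (5.77 and 8.03). The other Pax6 peak lay in an intron of Pax6, which also had the nearest TSS. It had 12.5 and 4.34, an H3K4me3 peak of 23064 bp and no JNKi cJun peak. A JNKi cJun peak overlapped the highest peak of Nkx2-2 and Pdx1, but not that of the other 4.

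Of 26 genes for islet hormones and granule proteins, 5 (19.2%) had a distal H3K4me3 cJun peak within 50 kb. Cck, which encodes cholecystokinin, had 1 at chr9:121486246-121487454, beyond the 3′ end of the gene and 7990 bp from its TSS. Its −log10 p was 7.45 and 3.06 in DMSO, it ranked 4899 of 4960 with an IDR of 0.729, and it overlapped a JNKi cJun peak with 8.75 and 4.27. H3K4me3 was 1623 bp wide in DMSO (13.9 and 20.1) and 2514 bp in JNKi (21.8 and 11.9). Its weaker DMSO replicate was near the lowest value in the list, 3.01. Chga, which encodes chromogranin A, had 3, the highest with 8.07 and 10.4 in DMSO and 11.9 and 7.89 in JNKi. Vgf, a neuropeptide precursor, had 2. Ptprn, a granule membrane protein, had 1 (13.2 and 6.04, with Resp18 as the nearest TSS) and Snap25, a SNARE protein of exocytosis, had 1 (11.2 and 10.4), neither with a JNKi cJun peak.

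In the other lists, 2 of 16 genes of glucose sensing and channels had a peak (12.5%), Cacna1c, an L-type calcium channel (7.23 and 7.08), and Ffar1, a fatty acid receptor (33.6 and 21.7, with JNKi cJun). The latter peak lay 43911 bp from Ffar1 and had its nearest TSS at Ffar2, 8657 bp away. Of 20 AP-1, CREB/ATF and immediate early genes 3 (15%) had one, Jund (6.87 and 3.50), Atf7 (5.19 and 5.37) and Egr1 (9.95 and 9.62), none with JNKi cJun. As 23.6% of all DMSO cJun peaks had a JNKi cJun peak, none among 3 is near the background. The peak near Jund lay in an intron of Pde4c. Of 18 JNK pathway genes 2 (11.1%) had one, Mapk10, which encodes JNK3 (5.77 and 5.87, in an intron of Arhgap24, 47846 bp from Mapk10), and Dusp1, a MAP kinase phosphatase (9.39 and 12.2). Of 21 genes of the unfolded protein response 2 (9.52%) had one, Eif2ak3 with 3, one of them the AP-1 peak above, and Canx, an ER chaperone (3.35 and 9.99, with Hnrnph1 as the nearest TSS). Of 16 genes of H3K4 methylation 2 (12.5%) had one, Setd1b, given above, and Cxxc1, a CpG-binding subunit of the SETD1 complexes (16 and 20.5, without JNKi cJun, 32769 bp from Cxxc1 and with Ska1 as the nearest TSS).

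The H3K4me3 peaks with most distal H3K4me3 cJun peaks held 3 each. One of 3276 bp lay nearest to Ccdc9, and a JNKi cJun peak overlapped 2 of its 3. That of 15152 bp over Nkx2-2 had 1 of 3 overlapped, and one of 2492 bp nearest to Gm26644 had 2 of 3. The share with a JNKi cJun peak was 23.6% over all DMSO cJun peaks and 25.1% over the 839, and these few peaks were not tested against it. An AP-1 site within 100 bp of a summit was found at 0 of these 9 peaks, which is near the background of 10% over all DMSO cJun peaks.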

How the data were processed

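CUT&RUN peak lists of Min6 cells were grouped by their labels (12 samples, 6 groups of 2 replicates). The authors trimmed reads with Trimmomatic, aligned them to GRCm38 with Bowtie2 2.4.2, filtered them with SAMtools 1.16, ran MACS2 2.2.7.1 on each replicate with IgG as control (narrow peaks), and paired replicates by IDR. The 4 deposited lists have 20 columns and no header. In every peak, the merged −log10 p-value that was deposited was the lower of the replicate values, and the deposited score is a scaled IDR. The lowest −log10 p was 3.01 in each list, which does not match the default peak calling named in the study's methods, and the setting used is unknown. Signal and q columns held placeholders. Reads and IgG tracks were not analysed here, and mapped depth per sample is unknown (nominal 30000000 paired-end reads).

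TSS came from GENCODE vM21 basic (77161 positions) and sequence from RefSeq GRCm38. Overlap needed 1 bp. Shares have 95% Wilson intervals, and 8 two-sided Fisher's exact tests across peaks were adjusted by Benjamini-Hochberg (SciPy 1.17.1, statsmodels 0.14.6, pandas 2.3.3, pysam 0.24.0, Python 3.11.15). The overlap, TSS and motif steps were tested on simulated data. Named peaks were the 10 highest by merged −log10 p, the 5 highest with an AP-1 site, the 3 highest in exons, introns and intergenic sequence and with and without JNKi cJun, the highest within 50 kb of each listed gene, those nearest the 3 kb limit, that nearest Cck, and the 3 H3K4me3 peaks with most members. One named peak is not reported here. The members and gene lists were chosen with earlier results of these data known. Alternatives were the promoter distance, IDR, overlap rule, motif window, annotation and rank. A Mantel-Haenszel odds ratio was used for rank quintiles.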

Additional observations from a re-analysis of the deposited data

How the results depend on the processing

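Of 111 alternative values of 12 results, 93 kept their direction and side of the threshold or moved little. With an IDR of at most 0.05, 82 distal H3K4me3 cJun peaks were left, 69.5% overlapped by JNKi cJun and 89.0% by JNKi H3K4me3. The JNKi cJun odds ratio against unmarked distal peaks turned to 0.646, and the AP-1 odds ratios of 1.46 (against promoter peaks) and 0.416 (against unmarked distal peaks) no longer passed with fewer peaks. The JNKi cJun odds ratio against unmarked distal peaks, 1.05 as reported, was also under 1 with a 1 kb promoter limit (0.976), at least 50% of the cJun peak inside H3K4me3 (0.903), 50% reciprocal overlap (0.998) and stratification by cJun rank (0.976), and passed in none of these. JNKi H3K4me3 overlap was 88.4% with the 1 kb limit and 88.9% with at least 50% inside. Against promoter peaks, the JNKi cJun odds ratio of 1.29 passed with a 5 kb limit, but under no other alternative, where it ran from 1.10 to 1.69. For AP-1 and JNKi cJun overlap, 200 bp (1.77) and whole-peak (2.13) windows passed. Between H3K4me3 peaks with and without a TSS, the AP-1 odds ratio was 0.968 at 200 bp and 0.707 over the whole peak, but 4.11 (1.34 to 12.6) at 50 bp and 3.55 (1.12 to 11.2) with 1 cJun peak per H3K4me3 peak, neither passing (adjusted p by Fisher's exact test 0.0542 and 0.0908), and the JNKi cJun odds ratio 1.05 with reciprocal overlap, on 27 peaks. The cause of these shifts was not tested. No paired analysis was possible because a treatment is represented by 1 list, in which replicates are unnumbered. No replicate could be left out, as peaks had to occur in both to be listed. Mapped depth per library is unknown, so a peak missing from a JNKi list is not shown to be missing from the cells.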

Other observations

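The single distal H3K4me3 cJun peak on the Y chromosome had −log10 p of 43.6 and 7.99 in the 2 DMSO replicates. At Neurod1, the H3K4me3 peak under the distal cJun peak was 920 bp wide in DMSO, with −log10 p of 14.4 and 8.55, and the JNKi H3K4me3 peak that overlapped it was 12400 bp wide, with 453.8 and 5.39. A DMSO H3K4me3 peak also covered the Neurod1 TSS, and peaks were called separately in each treatment, so the 2 widths do not show that the mark widened. The peak near Egr1, an immediate early gene, had the JNKi H3K4me3 values 180.8 and 20.0 and the DMSO values 175.3 and 146.5. These peaks were singled out after their values were seen.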
